A study of Mus musculus with 6 samples.

Results

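The 10 genes described here are expressed by the endothelial cells that line brain vessels or make up the blood-brain barrier: Cldn5, Slc2a1, Pecam1, Tek, Flt1, Mfsd2a, Slc16a1, Abcb1a, Ly6c1 and Vwf. They were chosen by symbol, and each symbol occurred once among the 55421 genes of the deposited tables. RNA-seq was performed on the cortex of wild-type C57BL/6J male mice that received isoflurane before cervical dislocation, 3 of 6 months of age (mice 10, 11 and 17) and 3 of 24 months of age (mice 2, 4 and 5). All 6 mice shared strain, genotype, sex and diet, so age was the factor that differed by design. Whole cortex was powdered, and endothelial cells are a minor part of this tissue. In such bulk samples, fewer endothelial cells and less of an RNA per endothelial cell cannot be told apart.

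Brain endothelium differs from that of most organs. Its cells are sealed by tight junctions, they hold few transport vesicles, and they carry transporters that bring in glucose, lactate and lipids and pumps that send drugs back to the blood. Angiopoietin and VEGF receptors on the same cells read signals from neighbouring cells, and Wnt ligands made in the neural tissue keep the barrier programme on. The question asked was whether the RNA of these genes differed between young adult and old adult cortex.

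Of the 10 genes, 1 was higher and 1 was lower at 24 months at a false discovery rate (FDR) of 10%. Vwf, which encodes the von Willebrand factor that captures platelets and carries coagulation factor VIII, rose 1.76-fold (log2 fold change 0.82 ± 0.17 SE). Slc16a1, which encodes the monocarboxylate transporter MCT1 for lactate and ketone bodies, fell by 0.38 on the log2 scale (± 0.13 SE), that is to 0.769 of its level at 6 months. The other 8 genes, among them the tight junction gene Cldn5 and the glucose transporter gene Slc2a1, had log2 fold changes from -0.26 to 0.12 and adjusted p-values from 0.23 to 0.987 (edgeR's quasi-likelihood test, Benjamini-Hochberg over all genes tested).

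As background, 10.0% of the 32905 genes tested were higher and 8.33% were lower at 10% FDR. Among the 15761 genes of at least 1 CPM (counts scaled to library size), these shares were 2.43% and 17.3%. At 1% FDR, the threshold used in the study, 0 of the 10 genes passed in the quasi-likelihood test, as did 0.00% of all genes, while 2 of the 10 had an unadjusted p under 0.05. At that threshold 1 gene, Vwf, passed in edgeR's likelihood ratio test, as did 5.18% of all genes, and in DESeq2's Wald test, as did 0.836%. The paper itself reports differentially expressed genes at 1% FDR, using edgeR after a filter of genes. Which edgeR test it used is not stated. The median log2 fold change of the 10 genes was -0.04, beside -0.14 over all genes of at least 1 CPM. This reference depended on the scaling of the libraries, since scaling by library totals alone moved the latter median to 0.05 and that of the 10 genes to 0.14.

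The libraries held 29495379 to 36494240 counts. At 24 months they had counts on 40208 to 43561 genes, against 33974 to 35651 genes at 6 months. Olfactory, vomeronasal and taste receptor genes, which cortex should hardly express (1831 genes), had 0.022 to 0.0248 CPM per exonic kilobase at 6 months and 0.0531 to 0.0853 at 24 months. A level of this size would make up at most 18.1% of the counts of Vwf and at most 7.15% of those of any other of the 10 genes in a library. Below, these 1831 genes are called unused receptor genes, as a name only. The paper reports that genes raised with age were mainly involved in sensory perception. Whether the counts on the 1831 genes are expression or background was not tested. The mice were separate animals, and nothing in the labels gives a batch.

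Endothelial cells could be read in every library. The 10 endothelial reference genes (such as Cdh5, which encodes VE-cadherin, and Kdr, which encodes the main VEGF receptor) summed to 132.8 to 142.3 CPM at 6 months and to 107.1, 138.3 and 160.6 CPM in mice 2, 4 and 5. None of these reference genes passed 10% FDR (1, Eng, by library totals), and their median log2 fold change was 0.00 (0.18 by library totals). Mouse 2 therefore had the lowest endothelial signal of the 6 and mouse 5 the highest, and this order returned in many of the genes below. It was not particular to endothelial genes. Mouse 2 was lowest and mouse 5 highest also for pericyte and smooth muscle markers (177.7 and 367.7 CPM). The same held for oligodendrocyte (817.3 and 2643 CPM) and microglia markers (399.0 and 439.4 CPM). In the other marker lists, such as those of neurons and astrocytes, this order did not hold in full.

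Compared per length of transcript, as TPM, the 10 genes spanned a wide range. Slc2a1 was the highest with a median of 72.8 TPM (66.4 to 76.2 over the 6 mice), followed by Slc16a1 with 43.6 TPM (31.7 to 48.2) and Cldn5 with 33.3 TPM (24.0 to 42.3). Ly6c1 had a median of 23.9 TPM. Mfsd2a, Flt1, Tek and Abcb1a lay close together with medians of 13.3, 11.7, 11.9 and 10.2 TPM. Pecam1 followed with 5.86 TPM and Vwf was the lowest with 1.41 TPM (0.847 to 2.21). Among neighbours in the order of mean TPM, the ranges of Slc2a1 and Slc16a1, of Ly6c1 and Mfsd2a, of Abcb1a and Pecam1, and of Pecam1 and Vwf did not overlap, whereas the other 5 neighbouring pairs overlapped.

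**Figure D1:**
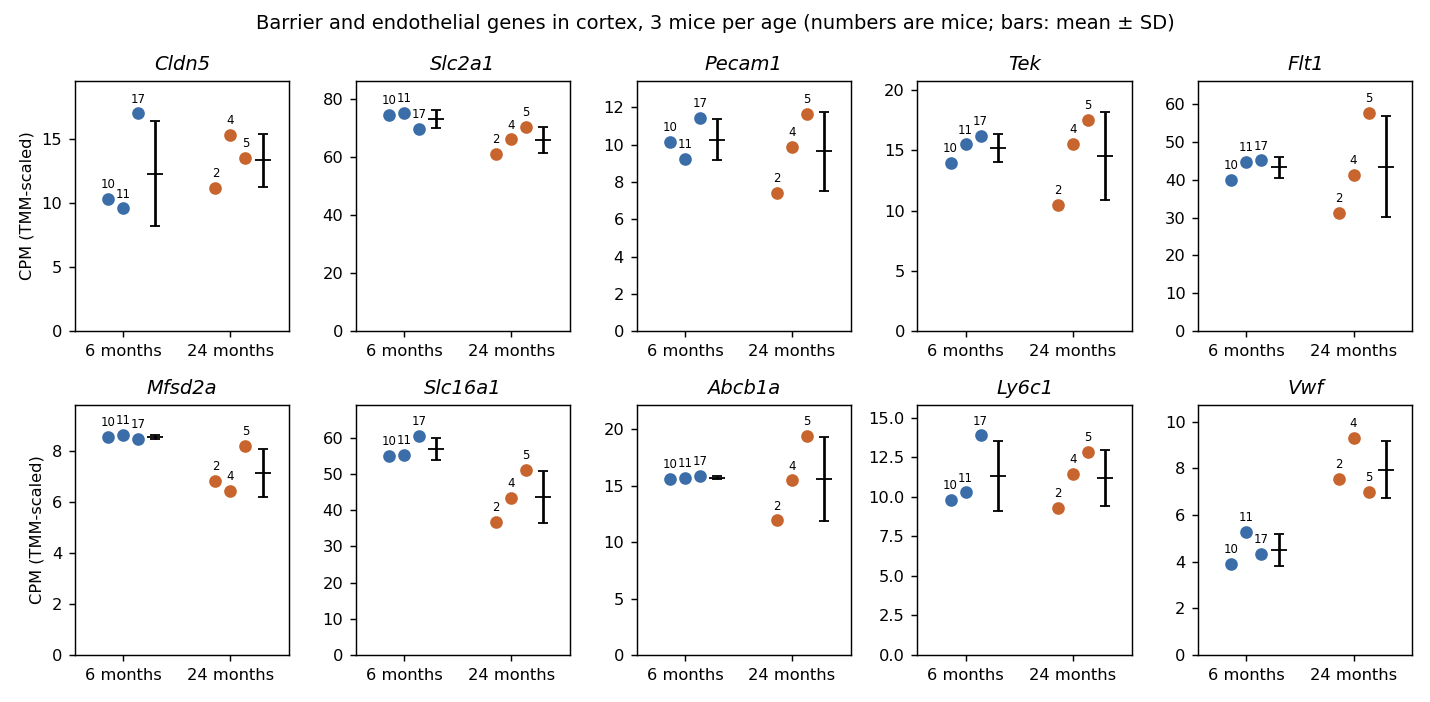
CPM after TMM scaling (vertical axes, linear and starting at 0) of each of the 10 genes in the 3 mice of 6 months (blue) and the 3 mice of 24 months (orange), with mouse numbers and, in black, the mean ± SD of each age. On this scale the ages are separate for Vwf, Slc16a1 and Mfsd2a and overlap for the other 7 genes. Per library total, those of Slc16a1 and Mfsd2a overlap as well.

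Cldn5 encodes claudin-5, the main claudin of brain endothelial tight junctions. It is on chromosome 16 (GRCm38, 18776847 to 18778262, plus strand). Mice 10, 11 and 17 of 6 months had 318, 331 and 557 counts, while mice 2, 4 and 5 of 24 months had 363, 530 and 461. Mouse 17 was the highest of all 6, and the ages overlapped. The means were 12.3 ± 4.09 CPM at 6 months and 13.3 ± 2.07 CPM at 24 months (SD, n = 3 each), a log2 fold change of 0.12 ± 0.22 (SE, adjusted p = 0.738).

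Pecam1 encodes CD31, an adhesion molecule at the contacts between endothelial cells (chromosome 11, 106654217 to 106750628, minus strand). Its counts were 313, 318 and 374 at 6 months and 241, 341 and 396 at 24 months. The lowest and the highest value were both at 24 months, in mice 2 and 5, so the 6-month mice lay within the 24-month range on the CPM scale as well. The means were 10.3 ± 1.11 and 9.64 ± 2.11 CPM, and the log2 fold change was -0.09 ± 0.17 (SE, adjusted p = 0.754), positive with library totals (0.10).

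Tek encodes TIE2, the receptor of the angiopoietins, which steady the vessel wall (chromosome 4, 94739289 to 94874976, plus strand). Counts of 430, 535 and 530 at 6 months stood beside 339, 538 and 596 at 24 months. Here too mice 2 and 5 were the extremes. The mean of 15.2 ± 1.15 CPM at 6 months and 14.5 ± 3.65 CPM at 24 months gave a log2 fold change of -0.07 ± 0.18 (SE, adjusted p = 0.82), positive with library totals (0.12).

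Flt1 encodes VEGF receptor 1, which binds VEGF-A, VEGF-B and placental growth factor and in its soluble form traps them (chromosome 5, 147561604 to 147726011, minus strand). The 6-month mice had 1234, 1542 and 1476 counts and the 24-month mice 1015, 1430 and 1959. The spread between mice of 24 months was wide, with an SD of 13.3 CPM around a mean of 43.4 CPM, beside 2.81 CPM around 43.3 CPM at 6 months. The log2 fold change was 0.00 ± 0.19 (SE, adjusted p = 0.987). Leaving out mouse 5 moved it to -0.25 (adjusted p = 0.231) and leaving out mouse 2 to 0.20.

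Of 8 genes of the angiopoietin and VEGF families of ligands, 1 was higher and 1 was lower at 10% FDR, beside 10.0% and 8.33% over all genes tested. The median log2 fold change of the 8 was 0.07 (0.26 by library totals). Angpt1, the activating ligand of TIE2 that mural cells and neural tissue secrete, was counted 231, 245 and 240 times at 6 months, against 116, 196 and 127 times at 24 months. All mice of 24 months lay below all mice of 6 months, and Angpt1 fell by 0.75 on the log2 scale (± 0.19 SE, adjusted p = 0.0567 by edgeR's quasi-likelihood test, 0.1002 by library totals). Angpt2, the context-dependent antagonist stored in endothelial cells, had 46 to 109 counts per library and a log2 fold change of -0.0036 ± 0.31 (adjusted p = 0.994). Of the ligands of VEGF receptor 1, Vegfa and Pgf had log2 fold changes of 0.27 ± 0.18 and 0.13 ± 0.25 (adjusted p = 0.329 and 0.75 by the same test), and Vegfb one of 0.0015 ± 0.13 (adjusted p = 0.994). The remaining ligand past 10% FDR was Angpt4, counted only 0, 2 and 2 times at 6 months, against 18, 23 and 4 times at 24 months. At the level of the olfactory, vomeronasal and taste receptor genes, 1.58 to 1.93 counts would fall on Angpt4 at 6 months and 4.21 to 6.46 at 24 months.

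Slc2a1 encodes GLUT1, through which glucose enters the brain, and is also made by astrocytes (chromosome 4, 119108711 to 119137983, plus strand). Its counts of 2292, 2597 and 2275 at 6 months compared with 1982, 2282 and 2388 at 24 months. On the scaled values mouse 5 lay just above mouse 17, so the ages overlapped by that pair alone. The means were 73.0 ± 3.10 and 65.8 ± 4.56 CPM, with a log2 fold change of -0.15 ± 0.09 (SE, adjusted p = 0.293). The direction rested on the scaling, as library totals gave 0.04.

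Slc16a1 encodes MCT1, which brain endothelial cells, astrocytes and oligodendrocytes make (chromosome 3, 104638668 to 104658462, plus strand). Its counts were 1692, 1910 and 1982 in mice 10, 11 and 17 and 1194, 1498 and 1740 in mice 2, 4 and 5. Every mouse of 24 months was below every mouse of 6 months on the CPM scale (54.9 to 60.5 CPM against 36.8 to 51.1 CPM). That scale includes the TMM factors. Per library total the ages overlapped, as mouse 5 (1740 of 32813159 counts) was above mouse 10 (1692 of 33493082). In edgeR's quasi-likelihood test the adjusted p was 0.0871. The fall passed 10% FDR in 3 of the 14 alternatives, staying negative in each of them (-0.50 to -0.19). Without mouse 2 the log2 fold change was -0.26 (adjusted p = 0.187), without mouse 4 it was -0.37 (adjusted p = 0.22), and without mouse 17, 10 or 11 the adjusted p was 0.179, 0.176 or 0.239. Without mouse 10 or mouse 4, 0 of all genes tested passed 10% FDR. By library totals the log2 fold change of Slc16a1 was -0.19 (adjusted p = 0.296).

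Astrocytes and oligodendrocytes also make MCT1, so their markers were read beside Slc16a1, with those of neurons. The 5 oligodendrocyte markers, such as Mbp and Mog, summed to 817.3 CPM in mouse 2, against 1951 and 2643 CPM in mice 4 and 5 and 1541 to 2391 CPM at 6 months, and 0 of the 5 passed 10% FDR. The 8 astrocyte markers summed to 4737 to 5120 CPM at 6 months and 4946 to 5399 CPM at 24 months, with 1 of the 8 (Gfap) higher. The 8 neuronal markers summed to 8874 to 10350 CPM at 6 months and 6572 to 8644 CPM at 24 months, and 2 of the 8 were lower. Among all genes of at least 1 CPM, 2.43% were higher and 17.3% were lower. No marker of these lists was at 0 in a library, and their part in the result for Slc16a1 was not tested.

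Mfsd2a encodes a carrier of lysophospholipids with docosahexaenoic acid that also holds down vesicle transport across the barrier (chromosome 4, 122946850 to 122961188, minus strand). The counts were 264, 298 and 277 at 6 months and 221, 222 and 279 at 24 months. The 6-month mice were almost equal on the scaled values, at 8.46 to 8.63 CPM, and the 24-month mice lay below them at 6.42 to 8.20 CPM. The log2 fold change of -0.26 ± 0.14 (SE) did not pass the test (adjusted p = 0.23), and it was -0.07 by library totals. In all, on TMM-scaled values, 2 of the 10 genes (Slc16a1 and Mfsd2a) had all mice of 24 months below those of 6 months. So did 16.3% of all genes tested. For 1 of the 10 (Vwf) they were all above, as for 20.0%. Among genes of at least 1 CPM, to which all 10 belong, these shares were 32.5% below and 5.32% above. Per library total the ages of Slc16a1 and Mfsd2a overlapped. For Mfsd2a, mouse 5 (279 of 32813159 counts) was above mouse 11 (298 of 36494240).

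Abcb1a encodes P-glycoprotein, the pump that returns many drugs to the blood (chromosome 5, 8660077 to 8748575, plus strand). Counts were 481, 543 and 519 for the 6-month mice, and for the 24-month mice 387, 535 and 661. The 6-month mice were again almost equal (15.7 ± 0.124 CPM), while mouse 2 was low and mouse 5 high at 24 months (15.6 ± 3.75 CPM). The log2 fold change was -0.01 ± 0.17 (SE, adjusted p = 0.974) and was 0.18 by library totals. Its paralog Abcb1b, the P-glycoprotein gene of other tissues, had 65 to 75 counts at 6 months and 69, 112 and 121 counts at 24 months (log2 fold change 0.51 ± 0.22, adjusted p = 0.154). Of the 69-base windows in the coding transcripts of Abcb1a, 11.5% also occur in Abcb1b, so reads from those windows cannot be told apart. Without strand, the same holds for the 10.1% of its exonic bases that lie on exons of Gm42686.

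Ly6c1 encodes a small surface protein anchored in the membrane of brain endothelial cells and of some leukocytes (chromosome 15, 75044018 to 75048830, minus strand). Its counts of 302, 355 and 455 at 6 months and 302, 397 and 437 at 24 months overlapped throughout. The means were 11.3 ± 2.24 and 11.2 ± 1.78 CPM, with a log2 fold change of -0.01 ± 0.17 (SE, adjusted p = 0.967), positive by library totals (0.17). Its neighbour Ly6c2, known from monocytes, is nearly the same in sequence, which bears on how reads are assigned. The coding sequences that match in length (393 bases, from GENCODE transcripts) are 97.7% identical and differ at 9 bases. Their first 120 bases are shown here because 6 of the 9 differences, written in capitals, fall in them.
Ly6c1: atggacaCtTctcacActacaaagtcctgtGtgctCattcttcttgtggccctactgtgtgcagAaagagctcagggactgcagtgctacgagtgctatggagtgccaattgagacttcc
Ly6c2: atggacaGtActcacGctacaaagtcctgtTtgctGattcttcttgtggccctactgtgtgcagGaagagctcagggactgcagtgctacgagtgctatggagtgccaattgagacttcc

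Of the 69-base windows in the transcripts of Ly6c1, 10.2% are also in Ly6c2. Ly6c2 itself was counted 0, 1 and 2 times at 6 months, against 6, 4 and 7 times at 24 months. It passed 10% FDR (adjusted p = 0.0871), on counts that stood beside 1.86 to 2.27 counts expected at 6 months and 4.94 to 7.58 at 24 months from the level of the unused receptor genes. Against the 302 to 455 counts of Ly6c1, at most 7 counts were given to Ly6c2 in any library. Another paralog, Ly6a, holds 6.07% of the windows of Ly6c1 and had 247 to 361 counts per library. Reads from those windows cannot be told apart either.

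Vwf was the member with the largest difference and the lowest level (chromosome 6, 125546774 to 125686679, plus strand). Reads on it numbered 120, 182 and 142 in mice 10, 11 and 17 of 6 months, against 245, 322 and 238 in mice 2, 4 and 5 of 24 months. Every mouse of 24 months was above every mouse of 6 months, at 7.0 to 9.31 CPM against 3.89 to 5.27 CPM. The means were 4.5 ± 0.705 and 7.95 ± 1.21 CPM (SD, n = 3 each), and the adjusted p was 0.0518 in edgeR's quasi-likelihood test.

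The rise of Vwf kept its direction in all 14 alternatives, with log2 fold changes from 0.70 to 1.01, and passed 10% FDR in 10 of them. The 4 that did not each left out 1 mouse, with adjusted p-values of 0.15, 0.145, 0.109 and 0.166 without mouse 10, 11, 2 and 4. Few genes of any kind passed in these fits. Over all genes, 0 of 32238 passed without mouse 10 and 0 of 30502 without mouse 4. Without mouse 11, 1 of 32003 was higher and 0 were lower. Without mouse 2, 72 of 30062 were higher and 104 were lower. By library totals the rise was 1.01 (adjusted p = 0.0493). Of the counts on Vwf, 10.9 to 13.3 at 6 months and 29.0 to 44.5 at 24 months would be expected over its 16064 exonic bases from the level of unused receptor genes. After these were taken off, the fold of the means went from 1.77 to 1.66 and the adjusted p was 0.0904.

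**Figure D2:**
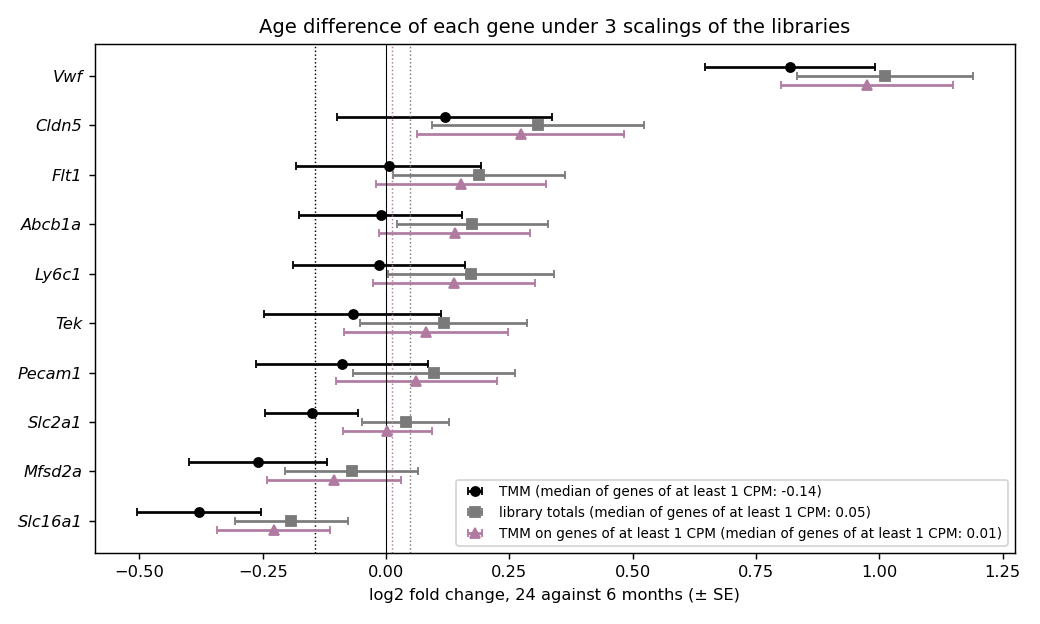
Log2 fold change for 24 against 6 months (horizontal axis) of each gene with its SE under TMM scaling, scaling by library totals and TMM factors taken from genes of at least 1 CPM, with dotted lines at the median of all genes of at least 1 CPM under each scaling. Vwf stays at 0.82 or above and Slc16a1 at -0.19 or below, while genes near 0 change sign with the scaling.

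A ratio taken within a library does not depend on the scaling. Relative to the mean log2 CPM of the 10 endothelial reference genes, Vwf lay at -1.19, -0.95 and -1.13 in the 6-month mice and at 0.03, -0.10 and -0.75 in the 24-month mice, a difference of 0.82. Slc16a1 lay at 2.61, 2.42 and 2.66 at 6 months and at 2.30, 2.11 and 2.11 at 24 months, a difference of -0.39. For both genes the ages were fully apart (two-sided exact permutation test over mice, p = 0.1 without adjustment for the 10 genes compared, which is the lowest value that 3 against 3 can give). With Pecam1 and Cldn5 alone as the reference, the difference was 0.79 for Vwf, whose ages then overlapped (exact p = 0.2), and -0.41 for Slc16a1 (exact p = 0.1). The other 8 genes overlapped, with differences from -0.26 (Mfsd2a) to 0.16 (Cldn5) and exact p-values from 0.3 to 0.9. On this measure 15.4% of all genes tested had the 24-month mice above and 6.66% had them below. The ratio is relative to other endothelial genes, so it shows unequal change and not which of them changed.

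**Figure D3:**
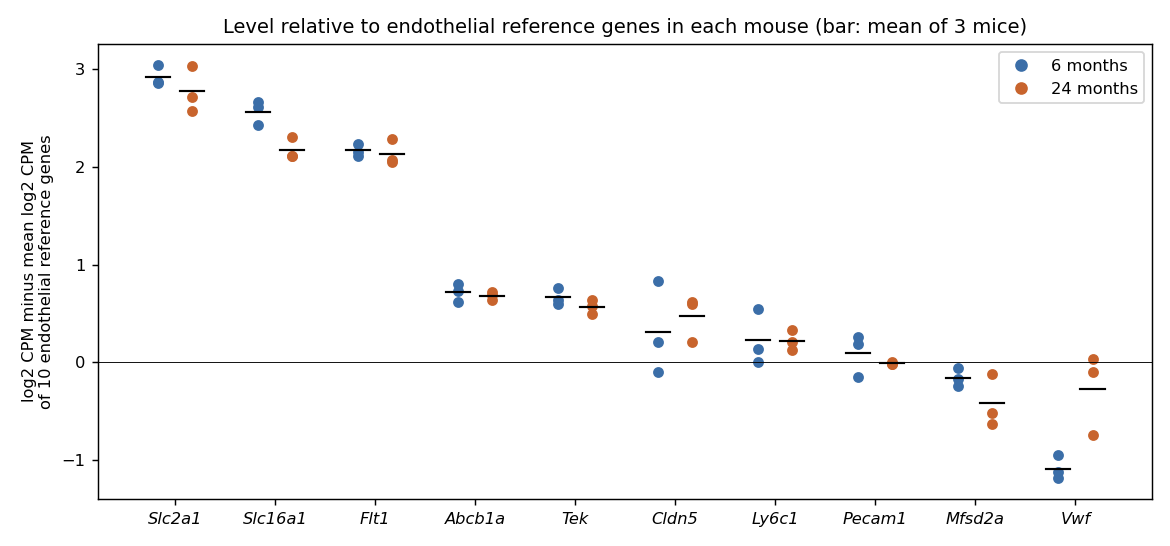
Log2 CPM of each gene minus the mean log2 CPM of 10 endothelial reference genes (vertical axis) in each mouse of 6 months (blue) and 24 months (orange), with a bar at the mean of 3 mice. The 24-month mice are all above for Vwf and all below for Slc16a1, and the ages overlap for the other 8 genes.

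Counted against single genes, Vwf gave 38.3, 57.2 and 38.0 counts per 100 counts of Pecam1 at 6 months and 102, 94.4 and 60.1 at 24 months. The ages were apart in this ratio for 8 of the other 9 genes, Cldn5 being the exception. In these 8 the lowest 24-month ratio was 1.03 (Flt1) to 1.44 (Slc16a1) times the highest 6-month ratio. All 9 ratios share the counts of Vwf, so they are not separate results. No share over all genes was taken for this measure. Mouse 5 was the nearest to the 6-month mice. Its 12.1 counts of Vwf per 100 counts of Flt1 were close to the 11.8 of mouse 11, as Flt1 was itself highest in mouse 5.

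Some of the 10 genes varied together over the libraries. Pecam1, Tek, Flt1 and Abcb1a followed each other, with Pearson's r of 0.86 to 0.98 for their 6 pairs over the 6 libraries and 0.88 to 0.98 after the mean of each age was taken off. This likeness rested mostly on mice 2 and 5, the libraries farthest from the others, since without them r ranged from 0.19 to 0.82 over the remaining 4. Cldn5 and Ly6c1 had an r of 0.84 with each other (0.87 after the age means were taken off), both being highest in mouse 17 on the CPM scale. Slc2a1, Mfsd2a and Slc16a1, all transporters, had r of 0.84 to 0.88, which went down to 0.62 to 0.67 after the age means were taken off. Within the ages Slc16a1 had a higher r with Pecam1 (0.96), Tek (0.94), Flt1 (0.97) and Abcb1a (0.96) than with Slc2a1 (0.65) or Mfsd2a (0.67). This order also rested on mice 2 and 5. Without them, and with age means kept, r of Slc16a1 was 0.45 with Pecam1, 0.055 with Tek and 0.54 with Flt1. It was 0.92 with Abcb1a, 0.61 with Slc2a1 and 0.93 with Mfsd2a. Vwf did not go with the rest, with r from -0.86 (Mfsd2a) to 0.24 (Cldn5). After the age means were taken off, its r ranged from -0.56 (Mfsd2a) to 0.14 (Tek), so the negative values held part of its age difference. These correlations are descriptions over 6 points that share their libraries and their scaling.

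**Figure D4:**
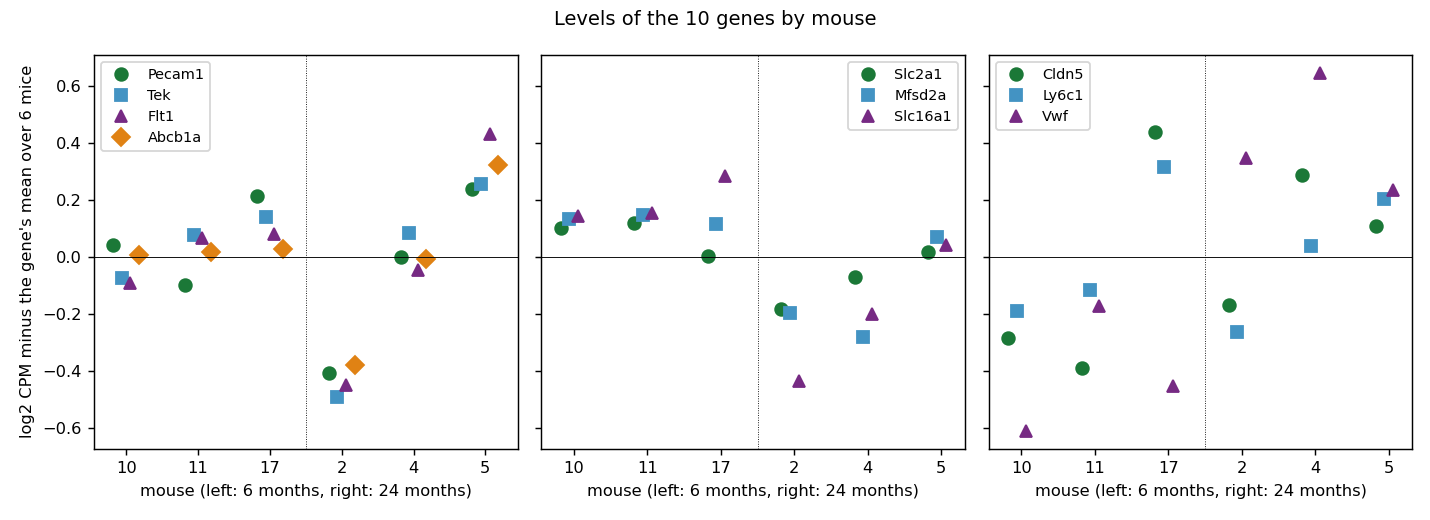
Log2 CPM minus the mean of the gene over the 6 mice (vertical axis) in each mouse (horizontal axis, 6 months on the left and 24 months on the right of the dotted line), with the genes in 3 panels. Pecam1, Tek, Flt1 and Abcb1a are lowest in mouse 2 and highest in mouse 5, the 3 transporters are lower in mice 2 and 4, and Vwf is higher at 24 months.

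The genes of at least 1 CPM most like the mean standardised profile of the 10 were Mir99ahg, Hspb3, Tmem87a, Naaladl2 and Usp16, with r of 0.99 to 1.00 over the 6 libraries, out of 15751 genes compared. None of these is among the endothelial lists used here. Of the endothelial reference genes, Esam (r = 0.98) ranked 14th and Kdr (r = 0.97) 32nd, whereas Egfl7 (r = 0.08) ranked 9721st.

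Sequence upstream of the transcription start was looked at for members that varied together or passed the test. RefSeq promoter sequences (GRCm38.p6) matched 8 of the 10 genes, not Pecam1 and Vwf. The 250 bases before the start are shown for Tek (chr4:94739039-94739288, plus strand) and Flt1 (chr5:147726012-147726261, minus strand), which followed each other from mouse to mouse, and for Slc16a1 (chr3:104638414-104638663, plus strand), which was lower at 24 months. Capitals mark GGAAG, or CTTCC on the other strand, a narrower form of the core GGAA that ETS factors bind. This family has known roles in endothelial genes.
Tek: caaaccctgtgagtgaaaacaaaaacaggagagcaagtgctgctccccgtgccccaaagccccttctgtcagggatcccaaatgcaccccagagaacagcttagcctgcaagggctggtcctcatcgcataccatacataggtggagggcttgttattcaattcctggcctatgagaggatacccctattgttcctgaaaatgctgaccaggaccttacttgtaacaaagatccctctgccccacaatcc
Flt1: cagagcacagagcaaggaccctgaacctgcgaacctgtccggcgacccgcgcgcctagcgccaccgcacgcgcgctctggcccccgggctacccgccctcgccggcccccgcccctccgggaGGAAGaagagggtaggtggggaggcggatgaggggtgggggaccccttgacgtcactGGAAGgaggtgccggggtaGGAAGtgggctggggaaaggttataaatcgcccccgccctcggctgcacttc
Slc16a1: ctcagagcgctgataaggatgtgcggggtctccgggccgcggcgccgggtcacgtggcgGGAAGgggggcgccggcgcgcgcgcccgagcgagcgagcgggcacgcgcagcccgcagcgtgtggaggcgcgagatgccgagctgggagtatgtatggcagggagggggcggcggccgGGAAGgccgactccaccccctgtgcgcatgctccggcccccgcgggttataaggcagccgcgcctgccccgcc

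This GGAAG form occurred 3 times upstream of Flt1, 2 times upstream of Slc16a1 and 0 times upstream of Tek. Of all 32851 promoter sequences of this length, 64.1% held it at least once. The shorter core GGAA, or TTCC, was not counted, and it does occur upstream of Tek. The sequence upstream of Slc16a1 held 76.4% G or C, that of Flt1 70.4% and that of Tek 51.2%, beside a median of 52.4% over all. The start of Abcb1a in RefSeq lies 92986 bases from the GENCODE start used for its position, and its sequence is not shown.

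Beyond the 10 members, 131 other vascular genes were read in lists by function. At 10% FDR the main test called 5 of the 131 higher and 12 lower. Beside these counts, the shares over all genes tested were 10.0% and 8.33%. Over genes of at least 1 CPM they were 2.43% and 17.3%. On the log2 scale, the 131 genes had a median change of -0.0083. The split of the 131 depended on the scaling. Library totals gave 13 higher and 2 lower, beside 12.5% higher and 0.966% lower over all genes tested. After the level of unused receptor genes was taken off, 0 were higher and 8 were lower, beside 0.748% and 6.54% over all genes. The direction of most calls in these lists thus went with that of all genes under library totals and after the subtraction. In the main test it went with that of genes of at least 1 CPM, and not with that of all genes tested. Some of these genes stand in more than 1 list.

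Junction genes, which seal and anchor endothelial and other cells, had 0 of 12 higher and 2 of 12 lower, with a median of -0.07 (0.12 by library totals). Among all genes of at least 1 CPM, 17.3% were lower. Cldn12, a claudin found in many tissues, fell by 0.43 on the log2 scale (± 0.11 SE, adjusted p = 0.0564). Ctnnb1, which encodes the junction and Wnt protein beta-catenin and is made by all cells, fell by 0.38 (± 0.09 SE, adjusted p = 0.0539). Neither passed 10% FDR with library totals (adjusted p = 0.154 and 0.18).

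Transporters had 0 of 17 higher and 3 of 17 lower with a median of -0.18 (0.008 by library totals). This share was near the 17.3% lower among all genes of at least 1 CPM, whose median was -0.14. The 3 lower genes were the zinc transporter Slc39a10 (-0.42 ± 0.11), the drug pump Abcg2 (-0.40 ± 0.13) and Slc3a2 (-0.29 ± 0.09), the heavy chain of the large neutral amino acid transporter. None of the 17 passed with library totals. Of the partners and paralogs, Bsg, the chaperone that brings MCT1 to the membrane, ranged from 21876 to 23844 counts at 6 months, against 22465 to 24707 at 24 months, and its log2 fold change was 0.02 ± 0.09 (adjusted p = 0.897). The neuronal glucose transporter Slc2a3 fell by 0.51 (± 0.09 SE, adjusted p = 0.0518) and also passed with library totals (-0.32, adjusted p = 0.086). In that list 1 of 8 genes, Ly6c2, was higher and 1 of 8 lower, with a median of 0.06. Over all genes tested, 10.0% were higher and 8.33% lower.

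Growth factor receptors had 0 of 14 higher and 2 of 14 lower (17.3% lower among all genes of at least 1 CPM), with a median of -0.09. By library totals 3 of the 14 were higher and 1 was lower, with a median of 0.09. The neuropilins Nrp1 and Nrp2, co-receptors of VEGF and semaphorins that neurons also carry, fell by 0.75 (± 0.17 SE, adjusted p = 0.0526) and 0.42 (± 0.14 SE, adjusted p = 0.0831, and 0.303 by library totals). Nrp1 was counted 1117, 1494 and 1258 times at 6 months, against 551, 949 and 866 times at 24 months, and it passed with library totals as well (-0.57, adjusted p = 0.0741). The Wnt list had 0 of 16 higher and 2 of 16 lower, with a median of -0.11 (0.08 by library totals). The lower genes were Fzd4, the Wnt and norrin receptor of the barrier (-0.43 ± 0.15, adjusted p = 0.0957), and Wnt7b, a ligand of neural cells (-0.38 ± 0.10, adjusted p = 0.0621). Neither passed with library totals, with TMM on genes of at least 1 CPM, with filterByExpr or with no filter.

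Endothelial transcription factors had 1 of 16 higher and 0 lower, with a median of 0.16 (2 higher and a median of 0.35 by library totals). Gata2 was counted 84, 114 and 107 times at 6 months, against 117, 162 and 179 times at 24 months (log2 fold change 0.54 ± 0.19, adjusted p = 0.0928). In the caveolae and fenestrae list 1 of 8 was higher and 0 lower, with a median of 0.03. Cavin1, a coat protein of caveolae that mural cells share, rose by 0.52 (± 0.17 SE, adjusted p = 0.0883), and Notch3, a receptor of mural cells, was the 1 of 10 pericyte and smooth muscle markers that was higher (0.58 ± 0.19, adjusted p = 0.0872). The mural markers summed to 225.8 to 305.5 CPM at 6 months and 177.7 to 367.7 CPM at 24 months, and their part in Cavin1 was not tested. Over all genes tested 10.0% were higher, and among those of at least 1 CPM 2.43%. After the level of unused receptor genes was taken off, each of these lists had 0 higher, beside 0.748% over all genes.

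The list of leukocyte adhesion and haemostasis, in which Vwf's partners lie, had 1 of 16 higher and 1 of 16 lower with a median of 0.09. Over all genes tested 10.0% were higher and 8.33% lower. By library totals 3 of the 16 were higher and 0 were lower, with a median of 0.27. The shares over all genes were then 12.5% and 0.966%. Selp encodes P-selectin, which is stored with von Willebrand factor in the Weibel-Palade bodies of endothelial cells. It was counted 0, 1 and 1 times at 6 months, against 13, 10 and 5 times at 24 months (adjusted p = 0.0526). Between 3.0 and 3.65 counts would be expected on it at 6 months and 7.96 to 12.2 at 24 months from the level of the unused receptor genes. Plat, which encodes tissue plasminogen activator and is also made by neurons, fell by 0.43 (± 0.10 SE, adjusted p = 0.0553, and 0.186 by library totals). Other cargo of the same bodies, Angpt2 and Edn1, which encodes endothelin-1, did not pass the test (Edn1 0.25 ± 0.29, adjusted p = 0.574), and neither did F8, the partner of von Willebrand factor in plasma (0.01, adjusted p = 0.974), nor Adamts13, its protease (0.22, adjusted p = 0.646).

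Vwf is also made by megakaryocytes and is more abundant in veins than in capillaries. Platelet markers had 0 of 5 past 10% FDR and summed to 4.12 to 5.41 CPM at 6 months and 5.30 to 5.93 CPM at 24 months. The venous list had 0 of 7 past it, with a median of 0.26 (1 higher, Nr2f2, and a median of 0.45 by library totals). In the arterial list 0 of 8 passed, with a median of 0.08, and in the capillary list 0 of 6 passed, with a median of -0.18 (0.01 by library totals). The genes with the highest mean CPM in these lists, a scale on which long transcripts count for more, were Vcam1 (-0.24 ± 0.14) and Ackr1 (0.05) for veins, Hey1 (-0.22 ± 0.09) and Efnb2 (0.11 ± 0.17) for arteries, and Spock2 (0.06 ± 0.09) and Tfrc (-0.19 ± 0.19) for capillaries. Per length, Mgp (29.1 TPM, log2 fold change -0.29 ± 0.33) was above Efnb2 (21.3 TPM), and Rgcc (143 TPM) and Car4 (64.2 TPM) were above Tfrc (55.0 TPM). For Rgcc (-0.29 ± 0.11, adjusted p = 0.107) all mice of 24 months lay below those of 6 months, whereas for Car4 (-0.11 ± 0.14, adjusted p = 0.629) the ages overlapped. Their part in the result for Vwf was not tested.

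**Figure D5:**
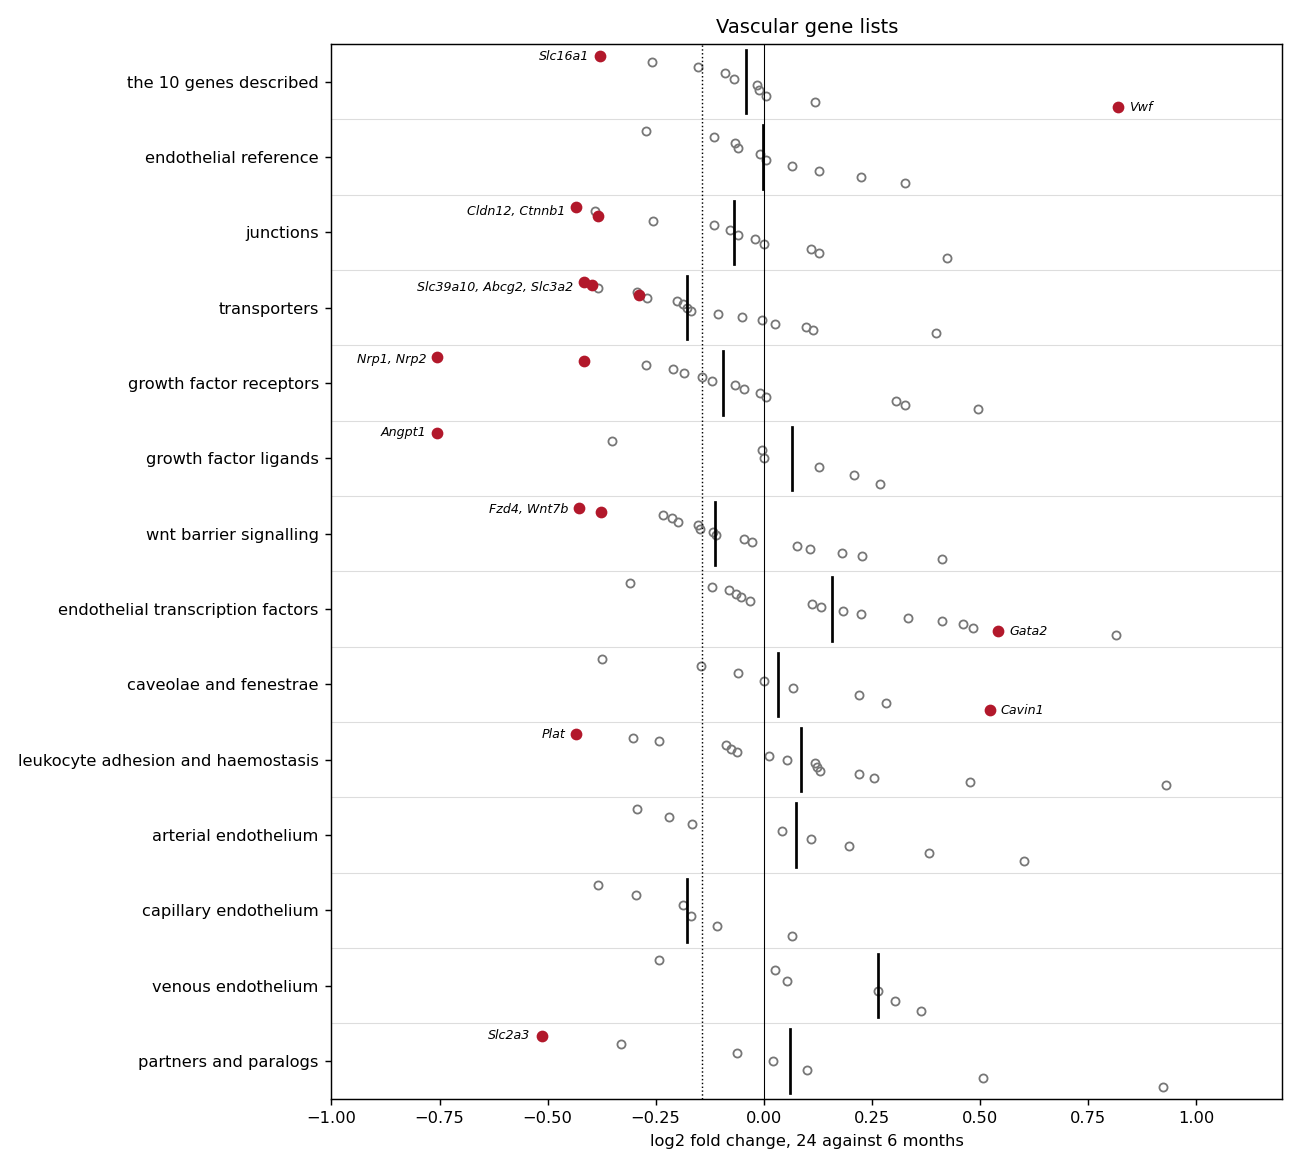
Log2 fold change for 24 against 6 months (horizontal axis, TMM scaling) of the 10 genes and of 13 lists of other vascular genes, with genes past 10% FDR filled and named, a bar at the median of each list, and a dotted line at the median of all genes of at least 1 CPM (-0.14). Genes with at most 3 counts in every mouse of an age, which include Selp, Angpt4 and Ly6c2, are left out of the points.

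Of the remaining marker lists, fibroblast and meningeal markers had 0 of 8 and choroid plexus markers 0 of 6 past 10% FDR. Red blood cell markers had 1 of 5 lower (Hbb-bt), and summed to 77.1 to 98.4 CPM at 6 months and 57.0 to 80.1 CPM at 24 months. Microglia markers had 1 of 6 higher (Tmem119) and 1 of 6 lower (Csf1r). Of the T and B cell markers 4 of 6 were higher, on a sum of 0.292 to 0.794 CPM at 6 months and 1.68 to 2.86 CPM at 24 months. These leukocyte genes were at most 4 counts each at 6 months in the genes that passed, so they were near the floor of detection. Beside these lists, 10.0% of all genes tested were higher and 8.33% lower.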

How the data were processed

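RNA-seq of cortex from 6 male mice was analysed. The authors trimmed single-end reads with Trim Galore 0.6.4, mapped them to GRCm38 (GENCODE annotation) with STAR 2.7.3a and counted them on exons with featureCounts of Subread 2.0.0, and deposited for every mouse a table of counts and a table of TPM values. By the stated options a multi-mapped read counts in fractions, yet the deposited counts were all whole. These deposited counts, 29495379 to 36494240 per mouse, were used unchanged, and deposited TPM served for levels between genes. The kit was not stated to mark strand. Counts and TPM were joined by row (49190 of 54587 identifiers with a reference symbol had that symbol).

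Testing used edgeR 4.0.16 (R 4.3.3) on genes whose counts summed to 10 or more: TMM scaling and the quasi-likelihood test without covariates, Benjamini-Hochberg over all genes. SE is the fold change over the root of its F. DESeq2 1.42.0 was an alternative. Log2 CPM had a prior count of 2, and TPM on the log scale a pseudocount of 0.1. Exact permutation tests used scipy 1.17.1. At this depth and with 3 mice per age, the SE of the 10 genes ranged from 0.09 (Slc2a1) to 0.22 (Cldn5) on the log2 scale.

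The members and gene lists were chosen with earlier results of these data known, and some listed genes are not reported here. All members are named. Of each other list at most 4 genes past 10% FDR are named, those with the largest change, or the 2 with the highest mean CPM where none passed, with Angpt1, Angpt2, Vegfa, Pgf, Bsg, Abcb1b and Ly6c2 always given. The cell marker genes, Eng, Nr2f2, Rgcc, Car4, Mgp, Vegfb, Edn1, F8, Adamts13, Cdh5, Kdr, Esam, Egfl7 and Ly6a were named after their values were seen. Gene positions and exonic lengths are from GENCODE vM21. Mouse numbers are not shared between ages, so no samples were paired.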

Additional observations from a re-analysis of the deposited data

How the results depend on the processing

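The rise of Vwf was positive in all 14 alternatives and the fall of Slc16a1 negative in all 14. Slc16a1 was not past 10% FDR by library totals (-0.19), TMM on genes of at least 1 CPM (-0.23), DESeq2's Wald test (-0.37), filterByExpr (-0.27), no filter (-0.34) or after subtraction of the level of unused receptor genes (-0.39, an alternative chosen after seeing the data), and without 1 mouse it ranged from -0.50 to -0.26. Vwf ranged from 0.70 to 0.99 without 1 mouse. Under each of those 6 settings 1 of the 10 genes passed, and without 1 mouse 0 to 2 passed. Without mouse 10 or mouse 4, 0 of all genes tested passed, so the count there does not set the 10 genes apart.

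The median log2 fold change of the 10 genes was 0.14 by library totals, and -0.21 to 0.12 without 1 mouse. Genes near 0 changed sign, 26 times in all. By library totals the values were 0.0393 for Slc2a1, 0.10 for Pecam1, 0.12 for Tek, 0.18 for Abcb1a and 0.17 for Ly6c1. With TMM on genes of at least 1 CPM they were 0.0027 for Slc2a1, 0.0613 for Pecam1, 0.0811 for Tek, 0.14 for Abcb1a and 0.14 for Ly6c1. With filterByExpr they were 0.0212 for Pecam1, 0.0411 for Tek, 0.10 for Abcb1a and 0.10 for Ly6c1, and with no filter 0.0247 for Abcb1a and 0.0219 for Ly6c1. Flt1 became -0.0162 after the subtraction. Leaving out 1 mouse gave ranges of -0.24 to 0.0761 for Pecam1, -0.22 to 0.13 for Tek, -0.25 to 0.20 for Flt1, -0.19 to 0.16 for Abcb1a and -0.12 to 0.16 for Ly6c1. The cause was not tested.

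In the level relative to endothelial reference genes, 2 genes did not overlap between the ages in the main setting. The shares over all genes tested were then 15.4% above and 6.66% below. With Pecam1 and Cldn5 as the reference, 1 gene did not overlap, and Pecam1 and Cldn5 themselves were not compared. Without 1 mouse, 2 to 4 genes did not overlap. No share over all genes was taken for these alternatives, so whether their counts exceed those of genes in general was not tested. No paired analysis was possible because the ages share no mouse numbers. With 3 mice per age the smallest exact p was 0.1, and what further depth would resolve was not tested.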
